A study of Mus musculus with 4 samples.

Results

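Collagen chains were followed in mRNA sequencing of mouse embryonic stem cell (ESC) lines that had been put through cardiac differentiation. A row of the deposited table was taken as a collagen chain when its gene name was Col, a number, the letter a and a number with nothing after it, and this rule found 43 of 24637 genes. The rule left out 1 other name of that beginning, *Col4a3bp*, which encodes a lipid transfer protein and no collagen. The study compared 2 independent WT lines (genotype Taf4+/+) with 2 independent lines labelled Taf4a-/-, which carry on both alleles a deletion of a pair of *Taf4a* exons. All lines came from blastocysts of C57Bl6J mice, were kept on inactivated mouse embryonic fibroblast (MEF) feeders, were grown for 5 days as embryoid bodies and then spent 9 days on gelatin-coated plates. Each library was therefore a whole culture, with every cell type the culture held. The sample titles give a replicate number and name no line. The paper's methods describe 2 biological replicates from 2 independent lines of each genotype, so replicates within a genotype were taken as different lines.

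Collagens are the main structural proteins of the extracellular matrix, and each molecule is a trimer of α chains wound into a triple helix. Fibrillar collagens are secreted as procollagens, lose their propeptides and pack into the banded fibrils of skin, bone, cartilage and the heart's interstitium, while type IV chains form the sheet-like network of basement membranes. FACIT collagens (fibril-associated collagens with interrupted triple helices) sit on the surface of fibrils, type VI forms beaded filaments close to cells, and other chains span the plasma membrane or build hexagonal networks. Trimers form between given chains only, such as α1(I) with α2(I) or α1(IV) with α2(IV), and in the heart fibroblasts are a major source of types I and III.

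The libraries held 21732746 to 27733034 reads counted on genes. Values are counts divided by a size factor for each library (normalized counts), and pairs of values are those of replicates 1 and 2 in that order. Genes whose mean over the libraries reached 10 normalized counts, 16926 in all, were compared with limma on log2(normalized count + 1). On this scale the difference of a weakly expressed gene comes out too small. Log2 differences are the libraries labelled Taf4a-/- minus WT, with their standard error (SE), and adjusted p-values come from limma with the Benjamini-Hochberg method over all of these genes. *Taf4a* itself had 889 and 678 normalized counts in WT and 1722 and 1799 in the libraries labelled Taf4a-/-. Its count over the whole gene was thus higher in the libraries labelled as mutant (log2 difference 1.18, SE 0.16, adjusted p = 0.00569 in limma). All directions given here rest on the labels. In the same libraries the 5 cardiomyocyte markers measured were lower, among them *Myh6* with a log2 difference of -3.92, and the 4 pluripotency markers were higher, among them *Nanog* with 2.76. With 2 libraries against 2 an exact two-sided permutation test cannot go below p = 0.33, so p-values are those of the limma model alone. For each gene that model combines the spread between libraries of a genotype with a variance trend over all genes tested.

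Collagen RNA as a whole was lower in the libraries labelled Taf4a-/-, and the size of the difference ran from no detectable difference to 61.7-fold between chains. All chains together took 2.23% and 3.12% in WT and 0.674% and 0.625% in the libraries labelled Taf4a-/- of all normalized counts. The mean of the summed normalized counts was 4.32-fold lower than in WT. Of the 43 chains, 40 passed the filter and were tested, and *Col6a4*, *Col10a1* and *Col28a1* had too few reads. Among those 40, 21 chains were lower at an adjusted p-value under 0.05, 2 were higher (*Col25a1* and *Col6a5*) and 17 did not pass the threshold, where 17.3% of all tested genes were lower and 11.3% were higher. The median log2 difference was -1.31 over the chains and -0.012 over all genes tested. In 30 chains both libraries labelled Taf4a-/- were below both WT libraries, in 3 they were above and in 7 the genotypes overlapped. Over all genes tested, 36.6% were below in this sense and 34.5% were above. In cultures of mixed cells, fewer cells of a type and less RNA per cell cannot be told apart.

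The falls were not equal over the classes. By class, 8 of 11 fibrillar chains, 1 of 6 type IV chains, 5 of 9 FACIT chains, 1 of 2 multiplexin chains, 4 of 5 tested type VI chains, both tested short-chain collagens and 0 of 4 transmembrane chains were lower. The type IV share of 16.7% was close to the 17.3% of all genes tested that were lower. Log2 differences of -2 or lower were found for 10 chains, and in 6.09% of all genes tested. The WT lines also differed from each other, since 29 of 40 chains were higher in WT replicate 2 than in WT replicate 1. Without single libraries the median log2 difference over the chains ran from -1.40 to -1.03. Several calls of lower were lost without WT replicate 2, in a fit with 1 WT library, where fewer of all genes tested were called too. Without a variance trend in the model the calls of *Col2a1*, *Col5a1*, *Col4a6*, *Col12a1*, *Col19a1*, *Col15a1*, *Col8a1* and *Col6a5* were lost. In that fit 1741 of all 16926 genes tested were lower and 856 higher. The call of lower was kept by 13 chains in each of 10 fits to all 4 libraries, and over all genes tested such a count was not made. The 13 were *Col1a1*, *Col1a2*, *Col3a1*, *Col5a2*, *Col11a1*, *Col27a1*, *Col9a2*, *Col14a1*, *Col16a1*, *Col6a1*, *Col6a2*, *Col6a3* and *Col8a2*. Without WT replicate 2, in a fit with 1 WT library, *Col5a2* and *Col27a1* lost it. Of the higher chains *Col25a1* kept its call in each of the 10 fits.

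**Figure D1:**
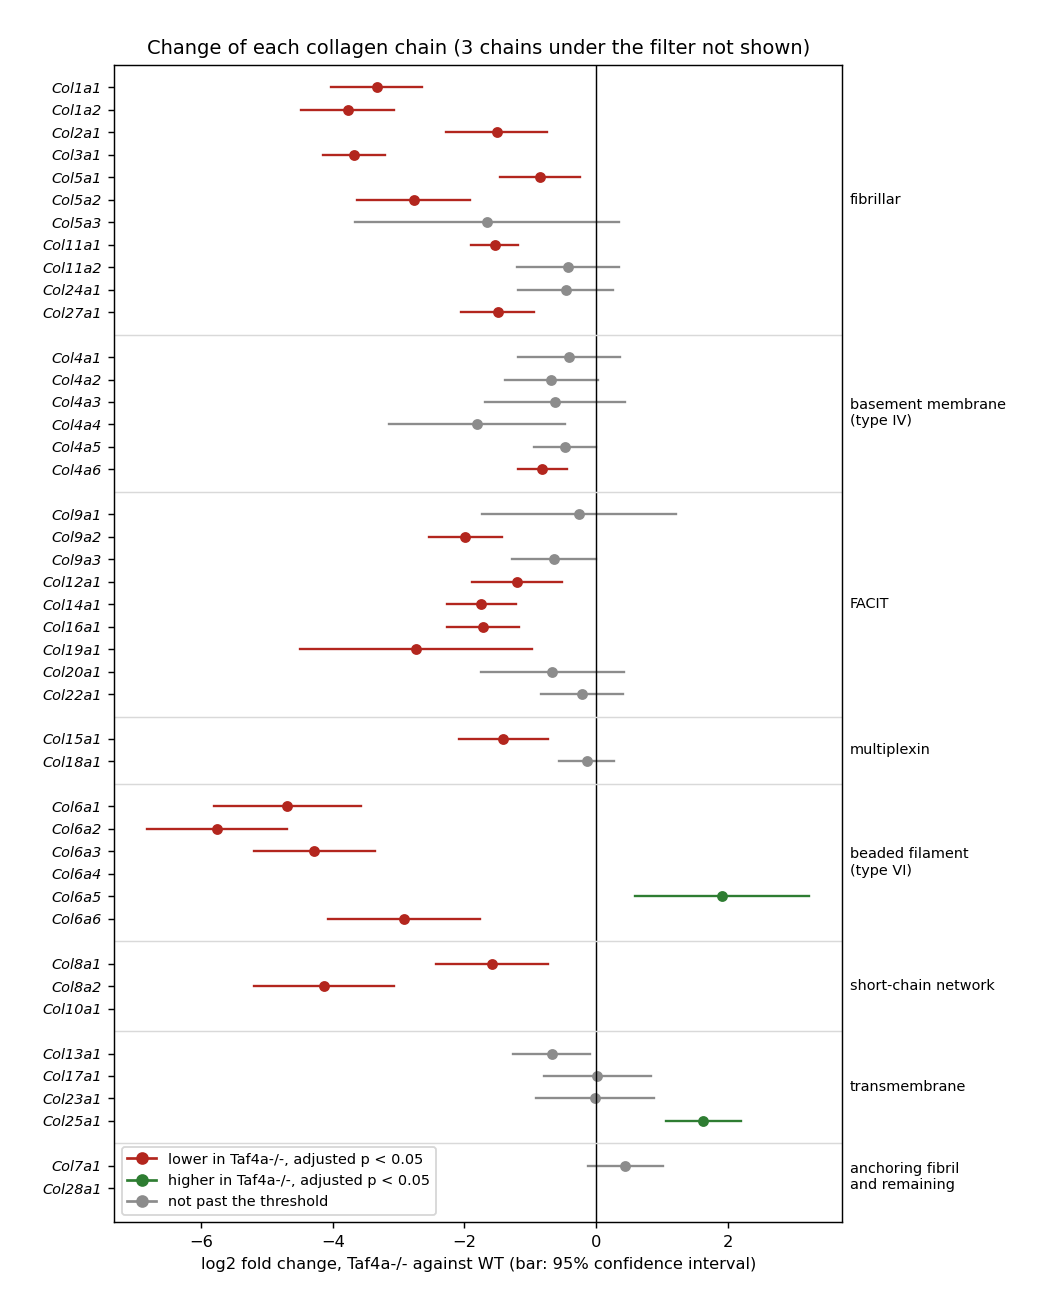
Log2 difference of the 40 tested collagen chains (horizontal axis, libraries labelled Taf4a-/- against WT, with 95% confidence intervals from limma), grouped by class on the vertical axis. Col6a2, Col6a1, Col6a3 and Col8a2 lie farthest to the left, followed by Col1a2, Col3a1 and Col1a1. Col4a1 and Col18a1 lie near 0 with intervals across it, and Col25a1 and Col6a5 are the 2 chains past the threshold on the right.

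The sequence just upstream of the annotated start is given for 5 chains, chosen to show 4 of the large falls in 3 classes and the rise that was called in every fit. These are the 150 bases before the start in RefSeq's GRCm38.p6 annotation, a build other than the NCBIM37 one used for gene positions elsewhere in this text, and 35 of the 43 chains had an entry there. Capitals mark 3 sequences that were searched on both strands, the TATA box TATAAA, the CCAAT box CCAAT and the GC box GGGCGG, and runs of capitals can hold matches that overlap. The windows are chr6:4505468-4505617 (plus strand) for *Col1a2*, chr1:45311388-45311537 (plus strand) for *Col3a1*, chr10:76726045-76726194 (minus strand) for *Col6a1*, chr4:126286644-126286793 (plus strand) for *Col8a2* and chr3:130180695-130180844 (plus strand) for *Col25a1*.
Col1a2: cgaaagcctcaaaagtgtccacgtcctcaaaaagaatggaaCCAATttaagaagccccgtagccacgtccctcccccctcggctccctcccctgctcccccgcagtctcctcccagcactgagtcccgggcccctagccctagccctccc
Col3a1: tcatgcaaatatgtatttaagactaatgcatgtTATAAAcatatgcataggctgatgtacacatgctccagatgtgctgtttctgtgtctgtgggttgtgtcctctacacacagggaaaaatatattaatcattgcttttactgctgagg
Col6a1: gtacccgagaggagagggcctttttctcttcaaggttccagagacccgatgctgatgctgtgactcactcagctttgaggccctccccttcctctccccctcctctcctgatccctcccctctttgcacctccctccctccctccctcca
Col8a2: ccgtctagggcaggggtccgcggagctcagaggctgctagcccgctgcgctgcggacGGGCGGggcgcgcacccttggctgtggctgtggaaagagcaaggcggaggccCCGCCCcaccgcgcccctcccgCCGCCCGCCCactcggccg
Col25a1: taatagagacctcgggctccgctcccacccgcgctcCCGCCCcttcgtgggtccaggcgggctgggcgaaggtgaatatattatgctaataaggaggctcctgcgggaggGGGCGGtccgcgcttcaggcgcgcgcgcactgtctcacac

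The windows shared no single one of these elements. CCAAT stood in that of *Col1a2*, TATAAA in that of *Col3a1*, GGGCGG in those of *Col8a2* and *Col25a1*, and none of the 3 was found in that of *Col6a1*. Among the 38 promoters listed for the 35 chains, 4 held TATAAA, 8 held CCAAT and 19 held GGGCGG in this window, where 7.57%, 24.5% and 28.6% of all 32851 promoters in the table did. A match is a run of letters and no measured binding site.

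Types I and III, the collagens that make up most interstitial fibrils, had the largest falls of the fibrillar class and made most of the collagen RNA in WT. *Col1a1* encodes α1(I), of which type I collagen holds a pair for each α2(I) chain encoded by *Col1a2*, and *Col3a1* encodes the only chain of type III. *Col1a1* (ENSMUSG00000001506, NCBIM37 chromosome 11, 94797538 to 94814356) had 114769 and 194896 normalized counts in WT and 13344 and 16578 in the libraries labelled Taf4a-/-, a log2 difference of -3.33 (SE 0.28, adjusted p = 0.00156). For *Col1a2* (ENSMUSG00000029661, chromosome 6, 4454814 to 4491543) the values were 86235 and 111173 normalized counts in WT and 5396 and 9517 in the libraries labelled Taf4a-/-, and the log2 difference was -3.77 (SE 0.29, adjusted p = 0.00127). *Col3a1* (ENSMUSG00000026043, chromosome 1, 45368383 to 45406551) had 162786 and 205106 normalized counts in WT and 15154 and 13487 in the libraries labelled Taf4a-/-, a log2 difference of -3.68 (SE 0.20, adjusted p = 0.000624). In all 3 chains the libraries labelled Taf4a-/- lay far below both WT libraries, by 10.3-fold, 13.2-fold and 12.8-fold of the means, which is several times the difference between the lines of a genotype. The 3 chains together made up 67.1% and 64.2% of all collagen normalized counts in WT and 21.2% and 26.3% in the libraries labelled Taf4a-/-.

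Type V collagen nucleates fibrils, and its main form holds a pair of α1(V) chains and 1 α2(V) chain. Its genes had log2 differences of different size. *Col5a2* had 13562 and 21084 normalized counts in WT and 1759 and 3486 in the libraries labelled Taf4a-/-, a log2 difference of -2.77 (SE 0.35, adjusted p = 0.00447). *Col5a1* had 24629 and 39408 normalized counts in WT and 15649 and 19088 in the libraries labelled Taf4a-/-, and its smaller log2 difference of -0.85 (SE 0.25, adjusted p = 0.0486) passed the threshold only narrowly. Both libraries labelled Taf4a-/- lay below both WT libraries for either gene, but the call of *Col5a1* was lost without the filter on low values (adjusted p = 0.0509), with a filter at a mean of 50 (adjusted p = 0.0506), without a variance trend (adjusted p = 0.121) and in 3 of the fits without a library, with -0.51 (adjusted p = 0.112) without WT replicate 2, and -0.71 (adjusted p = 0.223) and -0.99 (adjusted p = 0.0894) without replicates 1 and 2 of the libraries labelled Taf4a-/-. That of *Col5a2* was lost without WT replicate 2, at -2.45 (adjusted p = 0.0545). *Col5a2* lies 24614 bases from *Col3a1* on chromosome 1, tail to tail, and the 2 genes had log2 differences of -2.77 and -3.68. The third gene of the type, *Col5a3*, was weak in 3 libraries and higher in WT replicate 2, with 21.0 and 131 normalized counts in WT and 13.7 and 18.8 in the libraries labelled Taf4a-/-, and was not called (log2 difference -1.66, SE 0.83, adjusted p = 0.178), but it was without WT replicate 1, at -2.95 (adjusted p = 0.0211), and stood at -0.37 without WT replicate 2.

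The cartilage fibrillar collagens and the newer members of the class were weaker. *Col11a1*, whose α1(XI) chain sits inside cartilage fibrils, had 3509 and 4362 normalized counts in WT and 1419 and 1275 in the libraries labelled Taf4a-/-, a log2 difference of -1.54 (SE 0.15, adjusted p = 0.00226). *Col2a1*, the main collagen of cartilage, had 2759 and 2234 normalized counts in WT and 1230.5 and 616 in the libraries labelled Taf4a-/-, a log2 difference of -1.51 (SE 0.32, adjusted p = 0.0196). *Col27a1*, also a collagen of developing cartilage, had 527 and 736 normalized counts in WT and 247 and 196 in the libraries labelled Taf4a-/- and a log2 difference of -1.50 (SE 0.23, adjusted p = 0.00786). All 3 were lower in both libraries labelled Taf4a-/- than in both WT libraries and passed the threshold. *Col11a2* and *Col24a1* had no more than 158 normalized counts in any library, log2 differences of -0.43 and -0.46, and did not pass it, although for them too the genotypes did not overlap. Without WT replicate 2 the calls of *Col27a1*, at -1.26, and *Col2a1*, at -1.66, were lost, in a fit with 1 WT library. Without WT replicate 1, *Col2a1* was at -1.36 and also not called.

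**Figure D2:**
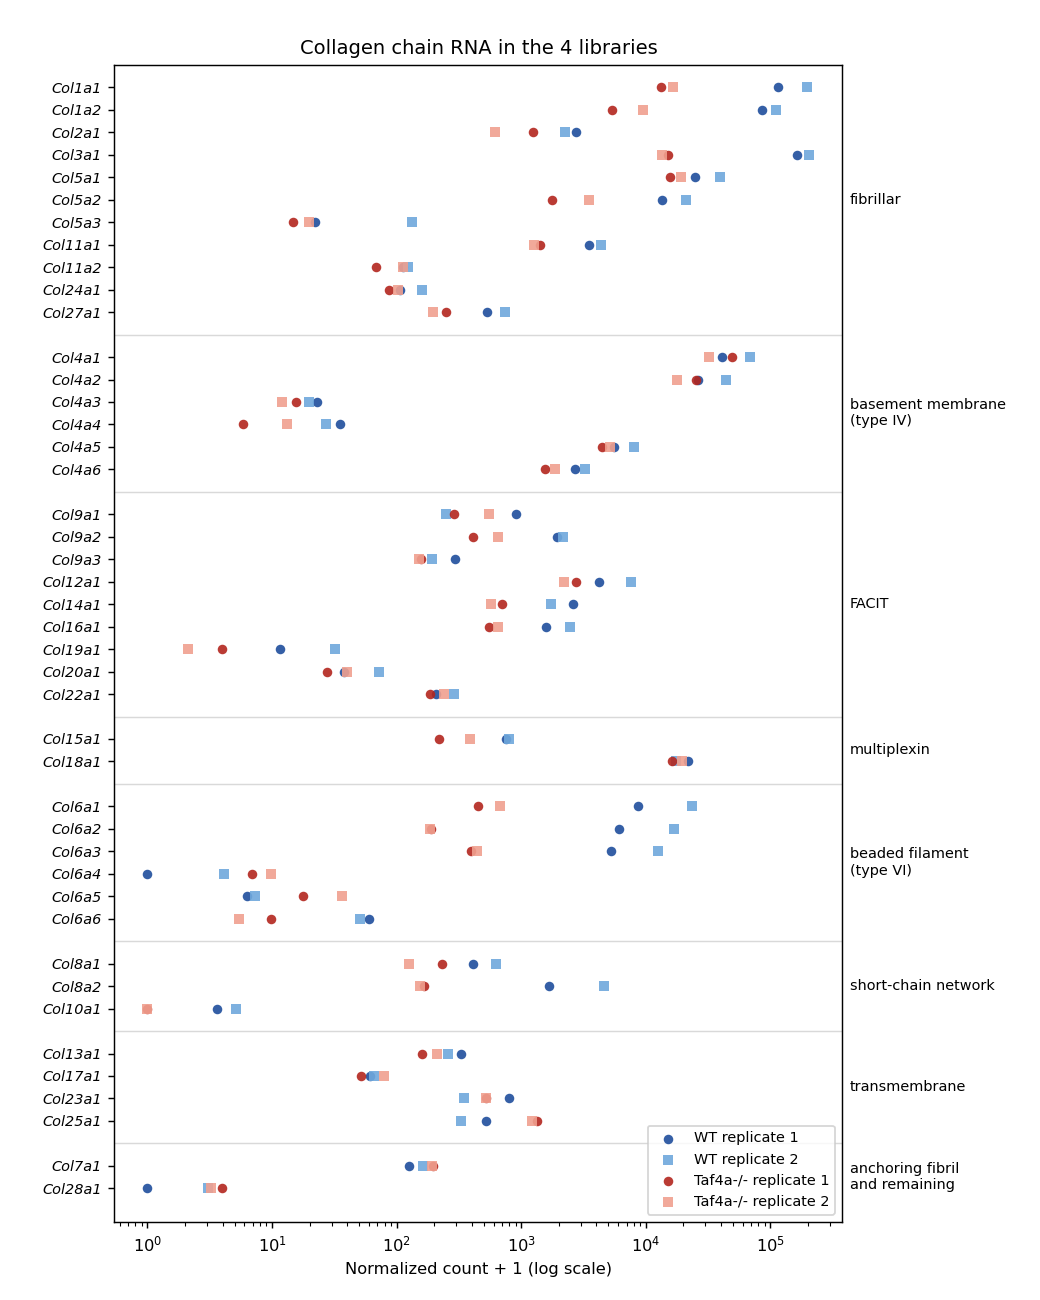
Normalized counts (log axis, value + 1) of each of the 43 collagen chains in the 4 libraries, with WT and the libraries labelled Taf4a-/- in different colours and chains grouped by class. The points of Col1a1, Col1a2, Col3a1 and of Col6a1, Col6a2 and Col6a3 fall apart by genotype, while those of Col4a1 and Col18a1 lie together.

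The major chains of type IV, which every basement membrane holds, were not called as different. *Col4a1* (ENSMUSG00000031502, NCBIM37 chromosome 8, 11198423 to 11312826) had 40535 and 69122 normalized counts in WT and 49008 and 32355 in the libraries labelled Taf4a-/-. The higher library labelled Taf4a-/- lay between the WT libraries and the lower one below both, and the log2 difference of -0.41 had a 95% confidence interval of -1.19 to 0.37 (adjusted p = 0.367). For *Col4a2* (ENSMUSG00000031503, chromosome 8, 11312805 to 11449287) the values were 26443 and 43885 normalized counts in WT and 25432 and 17723 in the libraries labelled Taf4a-/-, a log2 difference of -0.68 and an interval of -1.39 to 0.025 (adjusted p = 0.128). Its genotypes did not overlap, but replicate 1 of the libraries labelled Taf4a-/- was close to WT replicate 1. Both intervals hold no change as well as a fall by more than 2-fold, and both lie above the log2 differences of types I and III.

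The other type IV chains belong to more restricted basement membranes, with α3 and α4 best known from the kidney glomerulus and α5 and α6 from smooth muscle and epithelia. Of the type IV chains 16.7% passed the threshold as lower, close to the 17.3% of all genes tested. The only one to pass was *Col4a6*, with 2695 and 3276 normalized counts in WT and 1538 and 1853 in the libraries labelled Taf4a-/- and a log2 difference of -0.82 (SE 0.15, adjusted p = 0.0147). Its neighbour *Col4a5* had 5574 and 8003 normalized counts in WT and 4477 and 5182 in the libraries labelled Taf4a-/- and was not called (log2 difference -0.47, SE 0.19, adjusted p = 0.117), though both lay lower in each library labelled Taf4a-/-. *Col4a3* and *Col4a4* were barely present. They had 21.9 and 18.7 against 14.7 and 11.1 normalized counts for *Col4a3* and 34.2 and 26.0 against 4.89 and 12.2 normalized counts for *Col4a4*, and log2 differences of -0.63 (SE 0.44, adjusted p = 0.317) and -1.81 (SE 0.55, adjusted p = 0.0534). *Col4a4* passed with a pseudocount of 10, with voom on reads and without replicate 2 of the libraries labelled Taf4a-/-, at -2.39 (adjusted p = 0.0370), and *Col4a5* passed without WT replicate 1, at -0.73 (adjusted p = 0.0276). *Col4a6* lost its call without a variance trend, without WT replicate 2, at -0.67 (adjusted p = 0.0665), and without replicate 1 of the libraries labelled Taf4a-/-, at -0.68 (adjusted p = 0.0755).

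Type IV genes stand in pairs that are read in opposite directions from a common start region. On chromosome 8 the annotated starts of *Col4a1* and *Col4a2* overlap by 22 bases, on chromosome 1 those of *Col4a4* and *Col4a3* lie 71 bases apart, and on chromosome X those of *Col4a6* and *Col4a5* lie 1308 bases apart. The first pair was the most and the second the least expressed in every library. By pair the log2 differences were -0.41 for *Col4a1* and -0.68 for *Col4a2*, -1.81 for *Col4a4* and -0.63 for *Col4a3*, and -0.82 for *Col4a6* and -0.47 for *Col4a5*. All were negative, so any other pairing of these chains would share the sign too. The library kit did not mark strand, so reads from the overlap of *Col4a1* and *Col4a2*, which is 0.323% of the exon length of *Col4a1*, cannot be assigned to one of them.

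Among FACIT chains 5 of 9 fell, and the class as a whole lay 2.63-fold lower in summed normalized counts. *Col12a1*, a large chain of dense connective tissue, had 4194 and 7593 normalized counts in WT and 2726 and 2187 in the libraries labelled Taf4a-/-, a log2 difference of -1.21 (SE 0.28, adjusted p = 0.0258). *Col14a1*, its closest relative, had 2591 and 1746 normalized counts in WT and 701 and 575 in the libraries labelled Taf4a-/- and a log2 difference of -1.74 (SE 0.22, adjusted p = 0.00414). *Col16a1*, found in fibroblast and smooth muscle matrix, had 1584 and 2465 normalized counts in WT and 554 and 651 in the libraries labelled Taf4a-/-, a log2 difference of -1.72 (SE 0.23, adjusted p = 0.00505). The genotypes did not overlap for any of these, and *Col12a1* was the one of the 3 whose call did not hold in every fit, at -0.78 (adjusted p = 0.0639) without WT replicate 2. *Col19a1* had very few reads, 12 and 30 in WT and 3 and 1 in the libraries labelled Taf4a-/-, and its log2 difference of -2.74 (SE 0.72, adjusted p = 0.0368) depends on the pseudocount. It was -1.28 and no longer called with a pseudocount of 10. It was also not called with quantile normalization, the replicate block or no variance trend, without WT replicate 2, at -2.0 (adjusted p = 0.12), or without replicate 2 of the libraries labelled Taf4a-/-, at -2.29 (adjusted p = 0.0966).

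The chains of type IX, a heterotrimer on the surface of cartilage fibrils, were not all called. *Col9a2* had 1929 and 2148 normalized counts in WT and 406 and 646 in the libraries labelled Taf4a-/- and a log2 difference of -1.99 (SE 0.23, adjusted p = 0.00362). *Col9a1* had 905 and 249 normalized counts in WT and 288 and 545 in the libraries labelled Taf4a-/-, where WT replicate 1 was the highest and WT replicate 2 the lowest of the 4 libraries (log2 difference -0.26, SE 0.61, adjusted p = 0.770). Its log2 difference was 0.67 (adjusted p = 0.309) without WT replicate 1 and -1.19 without WT replicate 2. *Col9a3* had 292 and 192 normalized counts in WT and 156 and 149 in the libraries labelled Taf4a-/-, a log2 difference of -0.63 (SE 0.26, adjusted p = 0.120), and shares 6.07% of its exon length with the gene *Tcfl5* on the other strand. Of *Col9a1*, *Col9a2* and *Col9a3*, therefore, the threshold was passed by *Col9a2*. *Col20a1* and *Col22a1* had at most 289 normalized counts and overlapped between genotypes, with log2 differences of -0.67 and -0.21.

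Type VI collagen had the largest difference in summed level of any class, 30.3-fold lower, and its 3 common chains, which assemble in a 1 to 1 to 1 trimer, fell together. *Col6a1* (ENSMUSG00000001119, NCBIM37 chromosome 10, 76171537 to 76188913) had 8594 and 23466 normalized counts in WT and 446 and 675 in the libraries labelled Taf4a-/-, a log2 difference of -4.69 (SE 0.46, adjusted p = 0.00241). *Col6a2* (ENSMUSG00000020241, chromosome 10, 76058507 to 76086375) had 6064 and 16851 normalized counts in WT and 187 and 185 in the libraries labelled Taf4a-/-, a log2 difference of -5.76 (SE 0.43, adjusted p = 0.00125). *Col6a3*, the longest of the 3 and the one on another chromosome, had 5261 and 12595 normalized counts in WT and 392 and 443 in the libraries labelled Taf4a-/- and a log2 difference of -4.28 (SE 0.38, adjusted p = 0.00178). The means were 28.6-fold, 61.7-fold and 21.4-fold lower, and no value of the libraries labelled Taf4a-/- came near WT. The WT lines themselves differed, with type VI sums 2.65-fold higher in WT replicate 2 than in replicate 1, so the log2 difference of *Col6a2* went from -6.50 when WT replicate 1 was left out to -5.02 when WT replicate 2 was. In the same way that of *Col6a1* went from -5.42 to -3.97 and that of *Col6a3* from -4.91 to -3.66, and all 3 stayed called.

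The remaining chains of type VI can take the place of α3(VI), and the 3 lie in a row on chromosome 9. *Col6a6* had 58.7 and 49.9 normalized counts in WT and 8.81 and 4.42 in the libraries labelled Taf4a-/-, a log2 difference of -2.92 (SE 0.47, adjusted p = 0.00927), which was -3.03 (adjusted p = 0.0560) without WT replicate 2. *Col6a5*, its neighbour at 27984 bases, went the other way, with 5.26 and 6.23 normalized counts in WT and 16.6 and 35.4 in the libraries labelled Taf4a-/- and a log2 difference of 1.91 (SE 0.55, adjusted p = 0.0454). Both libraries labelled Taf4a-/- lay above both WT libraries, but the call was lost with no filter on low values (adjusted p = 0.0612), with voom on reads (adjusted p = 0.0561), with the replicate block and without a variance trend. Without one library it was lost each time, from 2.43 (adjusted p = 0.0515) without replicate 1 of the libraries labelled Taf4a-/- to 1.39 (adjusted p = 0.278) without replicate 2, and 1.81 (adjusted p = 0.107) and 2.02 (adjusted p = 0.114) without the respective WT library. *Col6a4*, 28810 bases further on, was under the filter, with reads of 0 and 3 in WT and 6 and 8 in the libraries labelled Taf4a-/-. An absence of reads in one library allows up to 3 reads by counting error alone.

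The short-chain collagens build hexagonal networks, type VIII under endothelium and around vessels and type X in hypertrophic cartilage. *Col8a2* had 1681 and 4629 normalized counts in WT and 165 and 152 in the libraries labelled Taf4a-/-, a log2 difference of -4.13 (SE 0.44, adjusted p = 0.00296), in which both libraries labelled Taf4a-/- were about 10-fold or more below the lower WT library. Leaving out WT replicate 1 gave -4.86 and leaving out WT replicate 2 gave -3.40, called in both. *Col8a1*, its partner, had 407 and 623 normalized counts in WT and 228 and 124 in the libraries labelled Taf4a-/- and a log2 difference of -1.58 (SE 0.35, adjusted p = 0.0227), at -1.27 (adjusted p = 0.134) without WT replicate 2. *Col10a1* had reads of 3 and 4 in WT and 0 and 0 in the libraries labelled Taf4a-/- and was not tested. The multiplexins XV and XVIII are proteoglycans of the basement membrane zone, and type XVIII releases the fragment endostatin. *Col15a1* was lower, with 757 and 798 normalized counts in WT and 219 and 389 in the libraries labelled Taf4a-/- and a log2 difference of -1.41 (SE 0.28, adjusted p = 0.0163), and its call was lost without either WT library, at -1.45 (adjusted p = 0.0674) and -1.37 (adjusted p = 0.102). *Col18a1* had 21707 and 17508 normalized counts in WT and 16072 and 19351 in the libraries labelled Taf4a-/-, so the genotypes overlapped, and its log2 difference of -0.14 had an interval of -0.57 to 0.28 (adjusted p = 0.559), which excludes a change by 2-fold in either direction under this model.

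The sum of the 4 membrane-spanning collagens stood at 152% of WT, and its one called member was 3.01-fold higher. *Col25a1* (ENSMUSG00000058897, NCBIM37 chromosome 3, 129883809 to 130302795), a collagen of neurons that also takes part in the innervation of muscle, had 524 and 329 normalized counts in WT and 1348 and 1225 in the libraries labelled Taf4a-/-. Its log2 difference was 1.63 (SE 0.23, adjusted p = 0.00645), and both libraries labelled Taf4a-/- were above both WT libraries. *Col13a1*, found at neuromuscular junctions and cell contacts, had 329.6 and 258 normalized counts in WT and 159 and 210.1 in the libraries labelled Taf4a-/- and was not called (log2 difference -0.67, SE 0.24, adjusted p = 0.0835). *Col23a1* had 797 and 348 normalized counts in WT and 519 and 524 in the libraries labelled Taf4a-/-, where the WT lines lay on either side of the others, and its log2 difference of -0.014 (adjusted p = 0.981) became 0.58 (adjusted p = 0.0477) without WT replicate 1 and -0.61 without WT replicate 2. *Col17a1*, the hemidesmosome collagen of epithelia, had at most 77.4 normalized counts and overlapped between genotypes (log2 difference 0.019). *Col7a1*, which forms the anchoring fibrils under the epidermis, had 124 and 161 normalized counts in WT and 194 and 190.2 in the libraries labelled Taf4a-/- and did not pass the threshold (log2 difference 0.44, SE 0.23, adjusted p = 0.202). *Col28a1* had reads of 0 and 2 in WT and 3 and 2 in the libraries labelled Taf4a-/- and was not tested.

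With these unequal changes the make-up of the collagen RNA differed between genotypes. Per kilobase of transcript, so that long chains do not weigh more, the share of fibrillar chains in all collagen was 76.0% and 72.8% in WT and 34.1% and 42.6% in the libraries labelled Taf4a-/-. The share of type IV chains was 12.3% and 13.9% in WT and 48.8% and 36.6% in the libraries labelled Taf4a-/-, and that of multiplexins was 3.83% and 2.13% in WT and 10.2% and 13.1% in the libraries labelled Taf4a-/-. Type VI chains held 4.55% and 8.37% in WT and 0.813% and 1.12% in the libraries labelled Taf4a-/-. Fibrillar and type VI shares were thus lower and type IV and multiplexin shares higher in both libraries labelled Taf4a-/- than in both WT libraries. In absolute terms type IV sums were 1.45-fold lower and multiplexin sums 1.13-fold lower on average, so the larger shares stood beside a smaller total. FACIT and transmembrane chains held less than 4% of the total in every library.

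**Figure D3:**
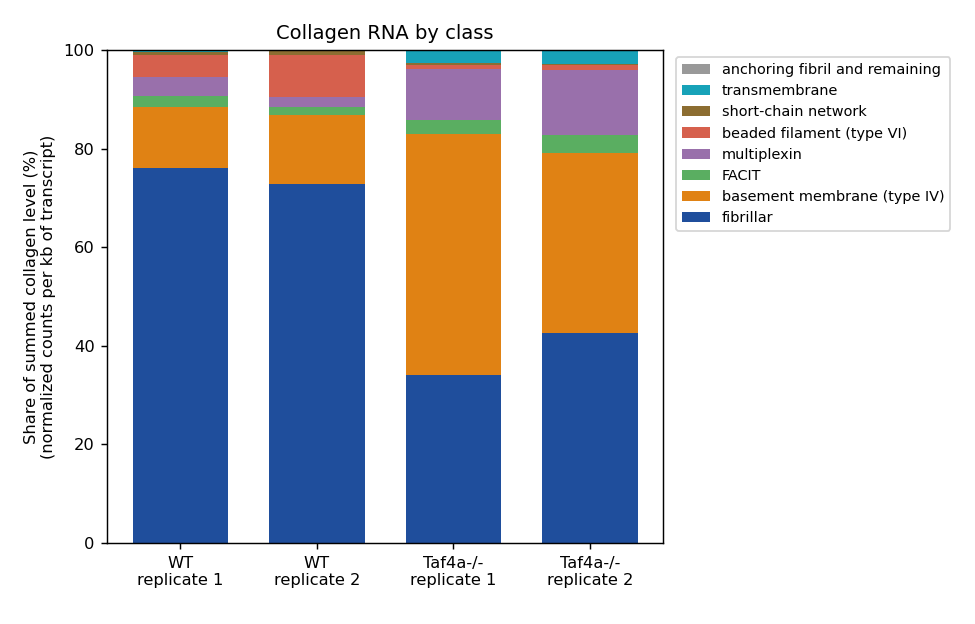
Share of each collagen class in the summed normalized counts per kilobase of all collagen chains, 1 stacked bar for each of the 4 libraries, in percent from 0. Fibrillar chains fill most of both WT bars (76.0% and 72.8%), and type IV chains fill 48.8% and 36.6% of the bars of the libraries labelled Taf4a-/-.

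The order of the single chains changed with it. In both WT libraries *Col3a1*, *Col1a1* and *Col1a2* had the highest levels per kilobase, in that order, and *Col4a1* came next. In both libraries labelled Taf4a-/- *Col4a1* was first, and *Col1a2* was at rank 7. In normalized counts per kilobase the level of *Col3a1* was 29257 and 36863 in WT and 2724 and 2424 in the libraries labelled Taf4a-/-, and that of *Col4a1* was 6128 and 10449 in WT and 7409 and 4891 in the libraries labelled Taf4a-/-. Below *Col4a1*, the ranks from 2 to 5 in the libraries labelled Taf4a-/- were held by *Col4a2*, *Col3a1*, *Col18a1* and *Col1a1* in one line and by *Col18a1*, *Col1a1*, *Col4a2* and *Col3a1* in the other, so these 4 neighbours were not ordered beyond the difference between lines.

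Ratios between partner chains in each library show how evenly a trimer's genes moved. Per kilobase, the ratio of *Col1a1* to *Col1a2* was 1.20 and 1.58 in WT and 2.23 and 1.57 in the libraries labelled Taf4a-/-, and the genotypes overlapped. The ratio of *Col4a1* to *Col4a2* was 1.49 and 1.54 in WT and 1.88 and 1.78 in the libraries labelled Taf4a-/-, higher in each library labelled Taf4a-/- but by little. Larger shifts were found in type V, where the ratio of *Col5a1* to *Col5a2* was 1.43 and 1.47 in WT and 7.01 and 4.32 in the libraries labelled Taf4a-/-, with near-equal WT lines. In type VIII the ratio of *Col8a1* to *Col8a2* was 0.205 and 0.114 in WT and 1.17 and 0.693 in the libraries labelled Taf4a-/-, and the genotypes did not overlap. The ratio of *Col6a1* to *Col6a2* was 1.36 and 1.34 in WT and 2.30 and 3.52 in the libraries labelled Taf4a-/-, again without overlap. Between types, the ratio of *Col4a1* to *Col1a1* was 0.317 and 0.318 in WT and 3.29 and 1.75 in the libraries labelled Taf4a-/-, nearly equal in both WT lines and above 1 in the others. These ratios are values without a test.

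**Figure D4:**
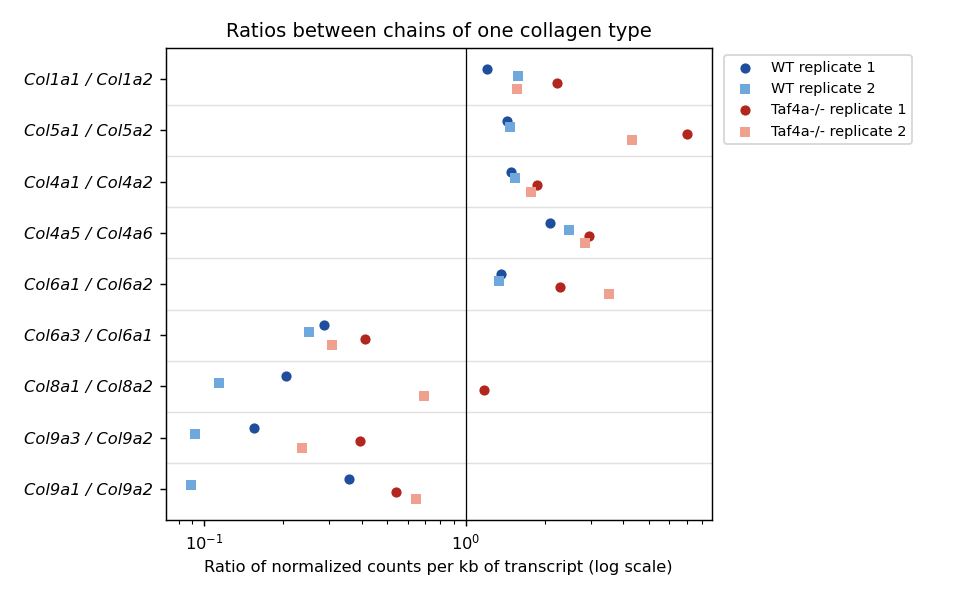
Ratio of normalized counts per kilobase between pairs of collagen chains (log axis), with 1 point for each library and the genotypes in different colours. The points for Col1a1 to Col1a2 overlap, and those for Col5a1 to Col5a2, Col8a1 to Col8a2 and Col6a1 to Col6a2 lie higher in the libraries labelled Taf4a-/-.

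The genes that build, secrete, cross-link and bind collagen were lower in the libraries labelled Taf4a-/- or were not called. Of 48 listed genes 47 were found and 45 tested, and 23 of them were lower and 0 higher. Their median log2 difference was -0.67. The background was again 17.3% lower and 11.3% higher, and 22 pathway genes did not pass the threshold in either direction. Chain modification and folding held most of the falls, 13 of 17 genes, followed by 4 of 9 receptors, 3 of 9 crosslinking genes and 3 of 10 secretion genes. Without a variance trend 1741 of all 16926 genes tested were lower. The number of lower pathway genes was 7 in that fit, where *P4ha1*, *P4ha2*, *Adamts3*, *Loxl3*, *Sparc*, *Itga11* and *Itgb1* among the genes described here lost their calls. The number was also below 23 without WT replicate 2 and without either library labelled Taf4a-/-, each a fit with 1 library of a genotype. Over all genes tested, too, fewer were lower without WT replicate 2 and without replicate 2 of the libraries labelled Taf4a-/-.

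Prolyl hydroxylases make the hydroxyproline that keeps the triple helix stable at body temperature. *P4ha2*, 1 of their catalytic subunits, had 3806 and 9216 normalized counts in WT and 1525 and 1306 in the libraries labelled Taf4a-/-, a log2 difference of -2.07 (SE 0.38, adjusted p = 0.0138). *P4ha1*, the main catalytic subunit, had 8016 and 19021 normalized counts in WT and 4436 and 3805 in the libraries labelled Taf4a-/-, a log2 difference of -1.59 (SE 0.38, adjusted p = 0.0275). *Leprel2*, a prolyl 3-hydroxylase now named P3h3, had 1342 and 1458 normalized counts in WT and 432 and 434 in the libraries labelled Taf4a-/- and a log2 difference of -1.69 (SE 0.13, adjusted p = 0.00131). All 3 were lower in both libraries labelled Taf4a-/-. The WT lines stood apart in the first pair, so *P4ha2* was at -2.71 without WT replicate 1 and -1.43 without WT replicate 2, and *P4ha1* at -2.21 and -0.96, called in each of these but not without a variance trend (adjusted p = 0.0614 for *P4ha2* and 0.0925 for *P4ha1*). *P4hb*, the shared subunit that is also protein disulfide isomerase and works on many proteins besides collagen, had the highest level of the list, 30782 and 42122 normalized counts in WT and 33162 and 26848 in the libraries labelled Taf4a-/-, and was not called (log2 difference -0.27, SE 0.21, adjusted p = 0.370).

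In secretion and propeptide removal, *Pcolce*, the enhancer of the C-propeptide proteinase, had 4593 and 7061 normalized counts in WT and 1277 and 1238 in the libraries labelled Taf4a-/-, a log2 difference of -2.18 (SE 0.21, adjusted p = 0.00222). *Creb3l1* encodes a membrane-bound transcription factor of collagen-secreting cells, and had 3666 and 4636 normalized counts in WT and 2026 and 1979.7 in the libraries labelled Taf4a-/- and a log2 difference of -1.04 (SE 0.14, adjusted p = 0.00581). *Adamts3*, a procollagen N-proteinase, had 537 and 991 normalized counts in WT and 355 and 368 in the libraries labelled Taf4a-/- and a log2 difference of -1.01 (SE 0.29, adjusted p = 0.0458). The genotypes did not overlap in these 3 genes, but *Adamts3* lost its call with no filter, quantile normalization, voom or no variance trend. It kept the call in only 1 of the fits without a library, and was at -0.57 (adjusted p = 0.0797), -0.98 (adjusted p = 0.0823) and -1.04 (adjusted p = 0.0701) without WT replicate 2 and the libraries labelled Taf4a-/- in turn. *Sec23a*, a COPII coat subunit needed for export of large cargo such as procollagen, had the highest mean of this list over the 4 libraries, though *Bmp1* was higher in the mean of the libraries labelled Taf4a-/-, with 5032 and 7722 normalized counts in WT and 3661 and 4239 in the libraries labelled Taf4a-/- and was not called (log2 difference -0.66, SE 0.21, adjusted p = 0.0640), though it was without WT replicate 1, at -0.97 (adjusted p = 0.0188).

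Among cross-linking genes the lysyl oxidase *Lox*, which starts the covalent links of fibrils, had by far the largest fall, 4149 and 11594 normalized counts in WT and 238 and 240.0 in the libraries labelled Taf4a-/-, a log2 difference of -4.85 (SE 0.44, adjusted p = 0.00192). That is a 32.9-fold difference of means, and the log2 difference went from -5.59 when WT replicate 1 was left out to -4.11 when WT replicate 2 was, called in both. *Loxl3*, a relative, had 519.9 and 607 normalized counts in WT and 163 and 338 in the libraries labelled Taf4a-/- and a log2 difference of -1.25 (SE 0.34, adjusted p = 0.0409). *Sparc*, a collagen-binding matrix protein with the highest level of the list, had 54379.7 and 86436 normalized counts in WT and 31324 and 27280.1 in the libraries labelled Taf4a-/-, a log2 difference of -1.23 (SE 0.25, adjusted p = 0.0187). *Sparc* lost its call without either library labelled Taf4a-/-, at -1.33 (adjusted p = 0.0524) and -1.13 (adjusted p = 0.102). For *Loxl3* this was so with quantile normalization and without WT replicates 1 and 2, at -1.36 (adjusted p = 0.116) and -1.14 (adjusted p = 0.195), and without replicate 1 of the libraries labelled Taf4a-/-, at -0.73 (adjusted p = 0.106). *Loxl1*, *Loxl2*, *Loxl4*, *Nid1*, *Nid2* and *Pxdn*, of which the last cross-links type IV collagen and the nidogens bind it, did not pass the threshold.

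Of the receptors, *Itga11*, the integrin subunit of fibroblasts for fibrillar collagen, had 43.8 and 111 normalized counts in WT and 14.7 and 19.9 in the libraries labelled Taf4a-/- and a log2 difference of -1.97 (SE 0.52, adjusted p = 0.0367). *Ddr2*, a receptor kinase for fibrillar collagen, had 985 and 1434 normalized counts in WT and 498 and 459 in the libraries labelled Taf4a-/-, a log2 difference of -1.31 (SE 0.20, adjusted p = 0.00814). *Itgb1*, the β subunit of all collagen integrins and of many others, had 26442 and 37146 normalized counts in WT and 19026 and 19605 in the libraries labelled Taf4a-/-, a log2 difference of -0.70 (SE 0.20, adjusted p = 0.0433). All 3 were lower without overlap. The call of *Itga11* was lost with quantile normalization, with voom, without WT replicate 2, at -1.31 (adjusted p = 0.124), and without replicate 1 of the libraries labelled Taf4a-/-, at -1.76 (adjusted p = 0.0811), and it was -2.63 and called without WT replicate 1. That of *Itgb1* was lost with the replicate block and without each of 3 libraries, at -0.45 (adjusted p = 0.0643), -0.68 (adjusted p = 0.216) and -0.72 (adjusted p = 0.189), in the order WT replicate 2 and the libraries labelled Taf4a-/-. Of the others, *Ddr1*, *Itga1*, *Itga2*, *Itga10* and *Mrc2* were not called. *Lair1*, a collagen receptor of leukocytes, had reads of 97 and 150 in WT and 0 and 2 in the libraries labelled Taf4a-/- and was called lower (adjusted p = 0.00367), with no fold given since 0 and 2 reads are under the floor. The macrophage markers given with the cell types were also lower, and a link between them and *Lair1* was not tested.

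**Figure D5:**
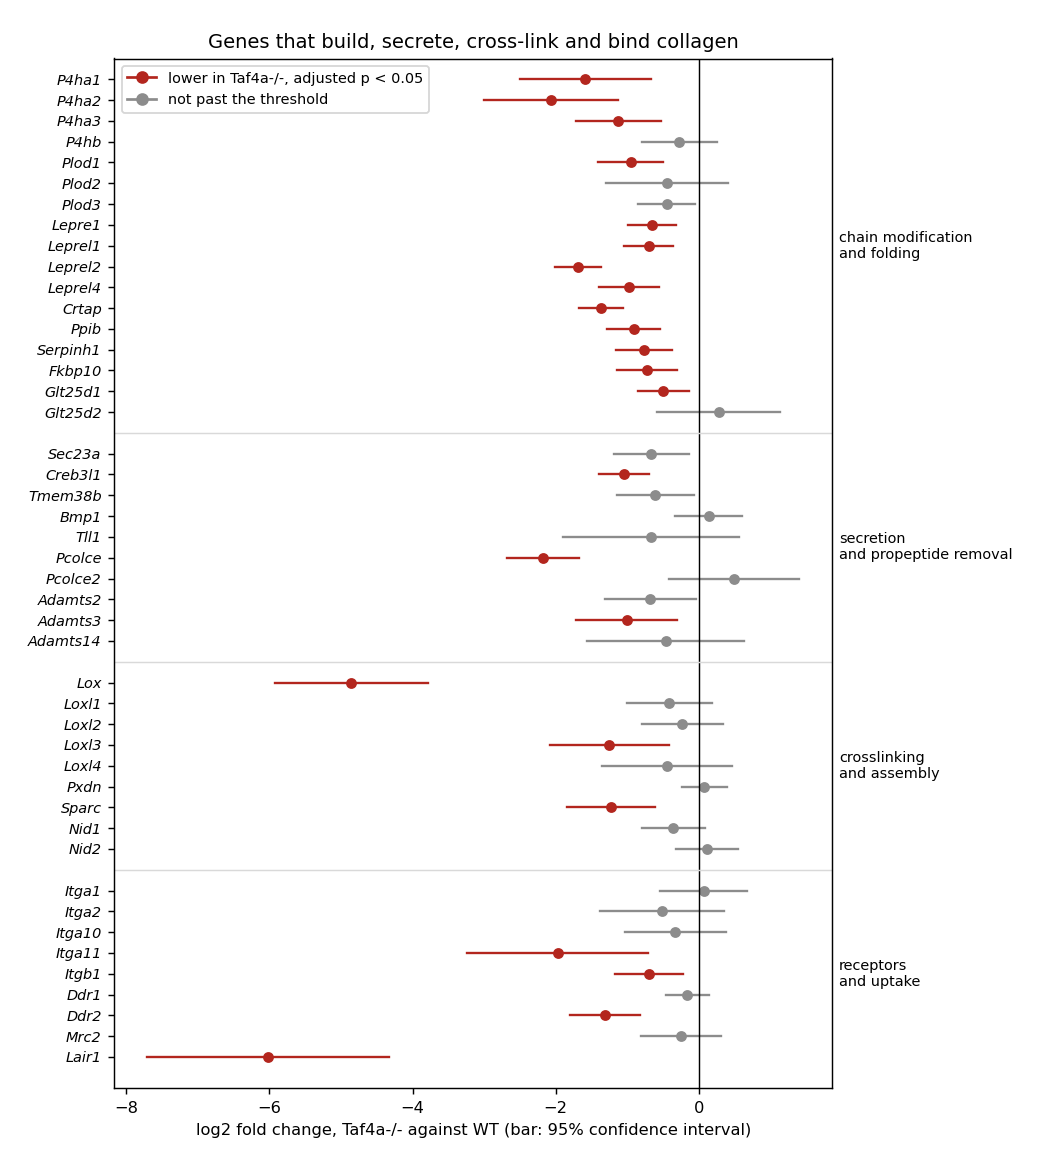
Log2 difference (horizontal axis, libraries labelled Taf4a-/- against WT, with 95% confidence intervals from limma) of the 45 tested genes for collagen modification, secretion, crosslinking and binding, grouped by list on the vertical axis. Most points lie between -2 and 0, Lox and Lair1 lie far to the left, and 0 genes passed the threshold on the right.

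Many markers of cell types that make collagen, or that such cultures can hold, moved with genotype too. The 9 fibroblast and mesenchyme markers summed to 72330.4 and 90081 normalized counts in WT and 20544 and 27734 in the libraries labelled Taf4a-/-, with *Dcn*, *Lum*, *Postn* and *Thy1* lower, *Prrx1* higher and 4 not called. *Pdgfra*, a defining mesenchymal marker, had a log2 difference of -0.18 (SE 0.17, adjusted p = 0.468), and *Prrx1* one of 1.09 (SE 0.12, adjusted p = 0.00326). *Lum*, *Dcn* and *Thy1*, markers of matrix-making fibroblasts, had -7.01, -4.63 and -3.45, which puts them at 0.799%, 4.04% and 8.70% of WT, and *Postn* stood at 26.2%. The 4 smooth muscle markers summed to 28511 and 51655 normalized counts in WT and 19284 and 18552 in the libraries labelled Taf4a-/-, with 2 lower. The 5 cardiomyocyte markers were present in WT and all lower, with sums of 18040.1 and 20033 normalized counts in WT and 1231 and 1459.9 in the libraries labelled Taf4a-/-. The fibroblast list stood at 29.7% of its WT sum, of which *Postn* is the largest part, beside 12.0% for fibrillar and 3.30% for type VI chains, and its members lay on both sides of these.

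Not all of the other lists moved with genotype, and the endothelial sums overlapped between genotypes. The chondrocyte markers summed to 2163 and 1384 normalized counts in WT and 1336 and 1245 in the libraries labelled Taf4a-/-, where *Hapln1* was lower (-1.65), *Acan* higher (2.66) and *Lect1* at or under 3 reads throughout. The median log2 difference of the 5 tested was 0.59, with *Sox9* at 0.59 and not called, beside the lower cartilage chains *Col2a1*, *Col11a1* and *Col9a2*. Of 4 osteoblast markers *Ibsp* and *Bglap* were at or under 3 reads in every library. The endothelial and parietal endoderm lists, cells rich in type IV collagen, summed to 10822 and 7104 normalized counts in WT and 5726 and 9541 in the libraries labelled Taf4a-/- for the first and to 28704 and 49812 normalized counts in WT and 28141 and 22085 in the libraries labelled Taf4a-/- for the second, with 0 of 5 and 1 of 6 markers called. The macrophage list fell from 5353 and 6452 normalized counts in WT to 38.2 and 59.7, the visceral endoderm list from 79077 and 62595 to 552 and 483, and the 3 epidermal markers from 665 and 416 to 64.6 and 59.7, all markers in these 3 lists being lower. The 4 pluripotency markers were all higher, with sums of 2959 and 927 normalized counts in WT and 8449 and 8826 in the libraries labelled Taf4a-/-. The part of these cell types in the collagen values was not tested.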

How the data were processed

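RNA was sequenced from 4 libraries, 2 WT and 2 labelled Taf4a-/-, each taken as 1 ESC line. The submitters' processing notes name CASAVA 1.8, TopHat 1.3.3 and HTSeq 0.5.3p1, with mm9 as genome. The authors deposited 1 table of counts per gene, normalized with DESeq by 1 size factor for each library, with 24637 genes, and no other column of values. Every value, divided by what 1 read was worth, came out whole within 0.001, which gave the reads; 3 reads were taken as the floor, for counting error only. Gene positions, exon overlaps and lengths (the transcript with the longest coding sequence) were taken from the GENCODE annotation of NCBIM37, where all 24637 identifiers were found.

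After a filter at a mean of 10 normalized counts, log2(value + 1) was fitted by genotype in limma 3.58.1 (R 4.3.3; lmFit, then eBayes using a variance trend). A gene counted as called if its p-value after Benjamini-Hochberg adjustment was below 0.05. The scripts were first tested on simulated data. The members and lists were chosen with earlier results of these data known. Values are given for the 3 chains of each class with the highest level per kilobase, for the 4 largest called falls and rises of each class and for chains of the same type, and of each pathway list for the 3 largest called falls and the gene with the highest mean; *Col2a1*, *Col11a1*, *Col27a1* and the ratios beyond partner chains were added after their values were seen, and *Mia3* is not analysed here. The fit was repeated with pseudocounts of 0.5 and 10, no filter or a mean of 50, TMM and quantile scaling, no variance trend, a stricter threshold, a replicate block, and each library left out once. Voom (limma) on the reads joined these after seeing the data. Plots were made in matplotlib 3.10.9 under Python 3.11.15.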

Additional observations from a re-analysis of the deposited data

How the results depend on the processing

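The counts of 21 lower and 2 higher chains were the same with TMM scaling, a pseudocount of 0.5 and a pseudocount of 10. The number of higher chains was 1 with no filter, a mean of at least 50, the replicate block, no variance trend, voom or a threshold of 0.01, and 1 to 2 without single libraries; lower chains were 14 in the fit without a trend and 14 at the stricter threshold, but 11 to 21 without single libraries. Lower pathway genes were 7 in each of these 2 settings and 13 to 30 without single libraries. Of all genes, 1741 were lower and 856 higher with no variance trend, 1119 and 331 when an adjusted p under 0.01 was asked, and 1222 to 3038 and 624 to 2476 without single libraries. With quantile normalization, which moved the median of all genes to 0.11, 2448 genes were lower and 2676 higher (2928 and 1906 otherwise), 20 chains were lower, and the log2 ratio of *Col7a1* and *Col28a1* summed was 0.78 in place of 0.45. The cause was not tested for any of these.

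Libraries of the same replicate number did not deviate together (correlation 0.012 over 16926 genes), so the numbers were not taken as pairs; with the replicate block 20 chains were lower and 1 was higher, and 2657 and 1536 of all genes. The log2 fold change of *Col23a1* ranged from -0.61 to 0.58 without single libraries (-0.014 with all), and the median of the 4 transmembrane chains was -0.0059 with TMM scaling, -0.016 with voom and -0.27 to 0.27 without single libraries (0.0022 otherwise).

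The tests of edgeR and DESeq2 on recovered reads were not run. Chains with few reads, such as *Col6a4*, *Col10a1*, *Col19a1* and *Col28a1*, allow no small difference to be detected at this depth, and each genotype rests on 2 libraries.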

Other observations

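The lines of a genotype differed in collagen RNA as well. Summed over all chains, WT replicate 2 had 1.47-fold more normalized counts than WT replicate 1, while the ratio of replicate 2 to replicate 1 in the libraries labelled Taf4a-/- was 0.940. The ratio of WT replicate 2 to replicate 1 was 2.65 for type VI, 2.51 for short-chain, 1.65 for type IV and 1.42 for fibrillar chains, and 0.815 for multiplexin and 0.584 for transmembrane chains. The collagen modification genes had a ratio of 1.46, the cardiomyocyte markers 1.11, the smooth muscle markers 1.81, and the 4 pluripotency markers 0.313. Over chains, the median log2 difference of WT replicate 2 from replicate 1 was 0.37, where that of all genes tested was 0.017. These are values of 1 library against 1, with no test.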
